A study of Mus musculus with 17 samples.

Results

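The transcripts followed here are those of 10 genes that activating transcription factor 4 (ATF4) is known to drive: Phgdh, Psat1, Psph, Shmt2, Mthfd2, Asns, Aldh18a1, Pycr1, Chac1 and Sesn2. They were chosen by name for their part in serine, one-carbon, asparagine and proline synthesis and in the response to amino acid shortage, and all 10 were found among the 48795 genes of the count table. Messenger RNA was sequenced from kidney cortices of mice in 4 groups, 17 libraries in all. Values are given as CPM, the usual scaling of read counts to the library total, here with totals adjusted by the trimmed mean of M values, and, where genes are compared with each other, as FPKM, which is CPM divided by the exon length in kilobases.

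The 5 WT libraries are labelled wild type. The 5 GCERAd libraries are labelled ATF4 KO; in these mice, homozygous for a floxed ATF4 gene and for a CreER transgene under part of the Ggt1 promoter, 200 µL of tamoxifen at 20 mg/mL was given on each of 2 days at 6 weeks of age, which deletes the gene in proximal tubules and leaves it in the other cells of the cortex. Their tissue was taken 1 month after the first injection, after a fast of 16 h. The study's methods do not limit that fast to 1 group. The 3 TRACK libraries are from a transgenic kidney cancer model, and the 4 GCERAdT libraries are labelled TRACK-ATF4 KO. The promoter of the TRACK transgene, the age and tamoxifen of the TRACK groups, any tamoxifen in WT mice and whether WT mice carried CreER are not given in the sources used here. The comparisons asked what the ATF4 KO label changed without TRACK (GCERAd against WT) and with it (GCERAdT against TRACK), and what the TRACK label changed without ATF4 KO (TRACK against WT) and with it (GCERAdT against GCERAd).

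Several facts about the libraries bear on every result. Totals were between 53688512 and 71364561 counts. All 10 proximal tubule markers were detected in every library. All 5 WT libraries held 0 counts of the Y-linked Ddx3y and 8296 to 25334 counts of Xist, whereas the other 12 held at least 3014 counts of Ddx3y and at most 391 of Xist, so that sex and group cannot be told apart in either comparison with WT. GCERAdT against TRACK and GCERAdT against GCERAd set libraries with Y-linked counts against each other. The share of counts on processed pseudogenes split the libraries into kind A (0.0320 to 0.0380%; WT 1, 3, 4 and 5, GCERAd 1 and 2, GCERAdT 1 and 2) and kind B (0.0574 to 0.0785%; the other 9, with all 3 of TRACK). WT 1 and 2, GCERAd 2 and 3, and GCERAdT 2 and 3 had the most alike immunoglobulin variable gene counts within WT and GCERAdT (Spearman's rho of 0.631 and 0.923) and the second most alike in GCERAd (0.482, after 0.494 for GCERAd 1 and 5), and the labels speak of 3 to 4 mice in a cohort, so each pair may come from 1 mouse. The study's summary of sequenced samples holds 2 names that also occur with an added letter, and it does not give their groups. Where nothing says otherwise, n counts libraries and not mice, and p-values measure the spread between libraries, which may be partly technical.

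Atf4 itself, the deleted gene, was lower in GCERAd and not in GCERAdT. Its CPM was 79.6, 74.8, 81.5, 86.9 and 101.1 in WT 1 to 5 and 72.9, 55.8, 57.4, 61.8 and 75.2 in GCERAd 1 to 5, a log2 fold change of -0.38 ± 0.11 (SE; edgeR quasi-likelihood, Benjamini-Hochberg adjusted p = 0.0218). That call was lost without WT 5 or GCERAd 3 (adjusted p up to 0.0559) and within kind B (-0.19, adjusted p = 0.679). It was 93.4, 79.9 and 77.6 in TRACK 1 to 3 and 80.5, 94.1, 94.8 and 103.7 in GCERAdT 1 to 4 (0.17 ± 0.11, adjusted p = 0.367), and every GCERAdT library lay above every GCERAd library (0.52 ± 0.11, adjusted p = 0.0108; 0.0774 within kind B and 0.0589 with the possible repeat libraries summed). The transcript level therefore does not mark the libraries labelled TRACK-ATF4 KO as lacking Atf4, and every direction drawn from GCERAdT rests on that label. A count over the whole gene also holds reads from cells without the deletion.

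ATF4 is translated when phosphorylation of the initiation factor eIF2 slows general translation, and it binds with C/EBP proteins to composite elements in its target genes. Its best known metabolic targets build amino acids: serine from a glycolytic intermediate, formate and glycine from serine in mitochondria, asparagine from aspartate, and proline from glutamate. CHAC1, which degrades glutathione, and SESN2, a leucine-binding restraint on mTORC1, are induced beside them, and the proximal tubule is a site of serine synthesis in the healthy kidney.

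RefSeq promoters were found for all 10 genes (GRCm38.p6). In the 250 bases before the start, the core of the C/EBP-ATF composite element, TGATGNAA on either strand, was found once each for Asns, Pycr1 and Chac1 and not for the other 7 genes; 3.45% of 32851 promoters held it. The longer TGATGAAAC, which overlaps that core, was in 0.213% of promoters and TGATGCAAT in 0.167%. The stretches below show the 3 matches in capitals, beside Aldh18a1, whose fitted change was above that of Asns in both TRACK comparisons and which had no match in this window. The Asns stretch is 30 bases at chr6:7693213-7693242 (minus strand), inside the gene as GENCODE places its end, with the match beginning 23 bases before the RefSeq start. The Pycr1 stretch is chr11:120643770-120643998 (minus strand, match beginning 103 bases before the start). The Chac1 stretch is chr2:119350992-119351228 (plus strand), and its match, read on the opposite strand, reaches to 193 bases before the start. The Aldh18a1 stretch is chr19:40588464-40588713 (minus strand). A match is a description of the letters and not of binding.
Asns: cccagccacaTGATGAAACttcccgcacgc
Pycr1: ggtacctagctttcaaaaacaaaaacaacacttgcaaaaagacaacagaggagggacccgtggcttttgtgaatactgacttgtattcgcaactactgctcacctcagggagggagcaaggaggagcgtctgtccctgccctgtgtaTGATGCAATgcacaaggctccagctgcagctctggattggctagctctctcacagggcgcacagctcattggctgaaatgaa
Chac1: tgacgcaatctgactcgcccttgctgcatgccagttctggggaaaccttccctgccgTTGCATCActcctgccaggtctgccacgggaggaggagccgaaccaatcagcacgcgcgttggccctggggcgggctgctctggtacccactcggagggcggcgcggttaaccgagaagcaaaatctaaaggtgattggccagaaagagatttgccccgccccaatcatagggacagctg
Aldh18a1: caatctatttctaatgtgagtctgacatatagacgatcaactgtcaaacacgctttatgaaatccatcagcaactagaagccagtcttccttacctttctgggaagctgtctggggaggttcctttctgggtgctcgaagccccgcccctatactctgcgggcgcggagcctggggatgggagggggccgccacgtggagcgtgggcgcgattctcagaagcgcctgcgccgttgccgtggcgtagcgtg

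In WT cortex the 10 genes covered a wide range of levels per length. Shmt2 stood highest at 46.7 ± 5.77 FPKM (mean ± SD, n = 5). Sesn2 (11.5 ± 1.45) and Psat1 (10.3 ± 2.19) came next and overlapped, followed by Phgdh (4.99 ± 0.785) and Psph (3.17 ± 0.328), whose libraries did not overlap with their neighbours. Mthfd2 (0.965 ± 0.207), Asns (0.911 ± 0.272) and Aldh18a1 (0.624 ± 0.154) were low and overlapped. Chac1 (0.169 ± 0.129) and Pycr1 (0.0160 ± 0.0222) were near the limit of detection, with 6 to 29 and 0 to 12 counts in a library. In GCERAdT the order was different: Aldh18a1 (9.05 ± 1.56, n = 4) and Asns (6.72 ± 1.52) overlapped with Phgdh (8.07 ± 1.44), and Mthfd2 (4.73 ± 0.881) lay above Psph (2.28 ± 0.351) with no overlap.

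**Figure D1:**
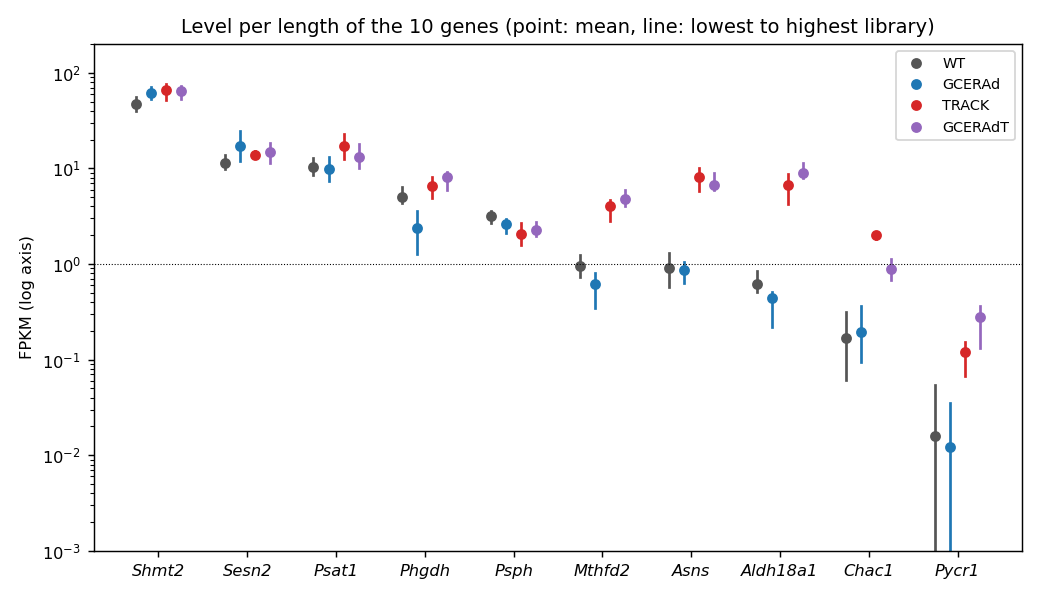
FPKM on a log axis for each gene (ordered by the WT mean) in WT, GCERAd, TRACK and GCERAdT; points are means, lines run from the lowest to the highest library, and a line that reaches the lower edge includes a library with 0 counts. The dotted line is 1 FPKM; Mthfd2, Asns, Aldh18a1, Chac1 and Pycr1 had WT means below it.

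The TRACK label went with the largest changes. Without ATF4 KO, 9 of the 10 genes passed the test in TRACK against WT: Asns, Mthfd2, Aldh18a1, Pycr1 and Chac1 rose 4.14-fold to 11.9-fold, Psat1, Shmt2 and Sesn2 rose 1.22-fold to 1.66-fold, and Psph fell to 0.659 of WT. Of all 11967 genes that reached a group mean of 1 FPKM, 45.6% passed in this comparison and 23% were called higher. With ATF4 KO, 6 of 10 passed in GCERAdT against GCERAd, all higher: Asns, Mthfd2, Aldh18a1, Pycr1, Chac1 and Phgdh rose 3.35-fold to 21.4-fold, against 19.2% of 11816 genes called and 9.39% called higher. These 2 comparisons share no library. Asns, Mthfd2, Aldh18a1, Pycr1 and Chac1 were called higher in both, as were 4.6% of the 11575 genes above the minimum in both and 2.21% of the 24418 genes with a count. The CPM ranges of these 5 genes did not overlap in either comparison, where 44.3% and 19.3% of genes above the minimum did not overlap. Those shares do not cover Pycr1, which was below the minimum in both, or Chac1 in the second. Asns, Mthfd2 and Aldh18a1 entered both, and Chac1 the first, only through their means with the TRACK label. Their separation is therefore a description and not a test.

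With the ATF4 KO label the share of the 10 genes called was near that of all genes in both comparisons. In GCERAd against WT, 3 of 10 passed (all 3 among the 5 above the minimum), against 27.6% of 11581 genes: Phgdh fell to 0.482 of WT, while Shmt2 (1.32-fold) and Sesn2 (1.51-fold) rose. In GCERAdT against TRACK, 1 of 10 passed, against 7.09% of 11928 genes: Chac1 fell to 0.449 of TRACK. A test of whether both ATF4 KO contrasts differ, with all 17 libraries, called 1 of 10, Phgdh, against 25.1% of 12208 genes; the same test asks whether both TRACK contrasts differ. Markers of the later tubule segments moved with GCERAd too, with no overlap with WT: the summed CPM of 4 principal cell markers was 744.9 to 907.7 in WT and 281.6 to 504.1 in GCERAd, that of 4 intercalated cell markers 217 to 247.6 and 161.6 to 190.9, that of 3 distal convoluted tubule markers 834.8 to 1211 and 508.6 to 785.5, and that of 3 thick ascending limb markers 5074 to 7755 and 3350 to 4577. The first 3 of these sums were below WT with no overlap in the TRACK groups too. They were 400.1 to 461.4, 161.4 to 175 and 407.8 to 618.5 in TRACK. In GCERAdT they were 242.9 to 419.8, 162.5 to 209 and 547.8 to 778.1. The thick ascending limb sum overlapped with WT in TRACK (3456 to 6055) and not in GCERAdT (4080 to 4653). The part of these markers in the changes of the 10 genes was not tested.

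The count of genes above the minimum matters for these shares. In TRACK against WT 9 of the 10 entered the test, Asns, Mthfd2, Aldh18a1 and Chac1 only through their TRACK means, so that these 4 had to differ to enter. The same holds for Asns, Mthfd2 and Aldh18a1, which entered GCERAdT against GCERAd through GCERAdT, and for Chac1, which entered GCERAdT against TRACK through TRACK. In GCERAdT against TRACK 9 entered, in GCERAdT against GCERAd 8, and in GCERAd against WT 5. The values of Pycr1 in every comparison, of Chac1 in GCERAd against WT and GCERAdT against GCERAd, and of Asns, Mthfd2 and Aldh18a1 in GCERAd against WT were read from a second fit, on every gene that had a count, in which 22.9% (TRACK against WT), 7.86% (GCERAdT against GCERAd), 11.7% (GCERAd against WT), 4.75% (GCERAdT against TRACK) and 9.95% (the difference) were called.

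**Figure D2:**
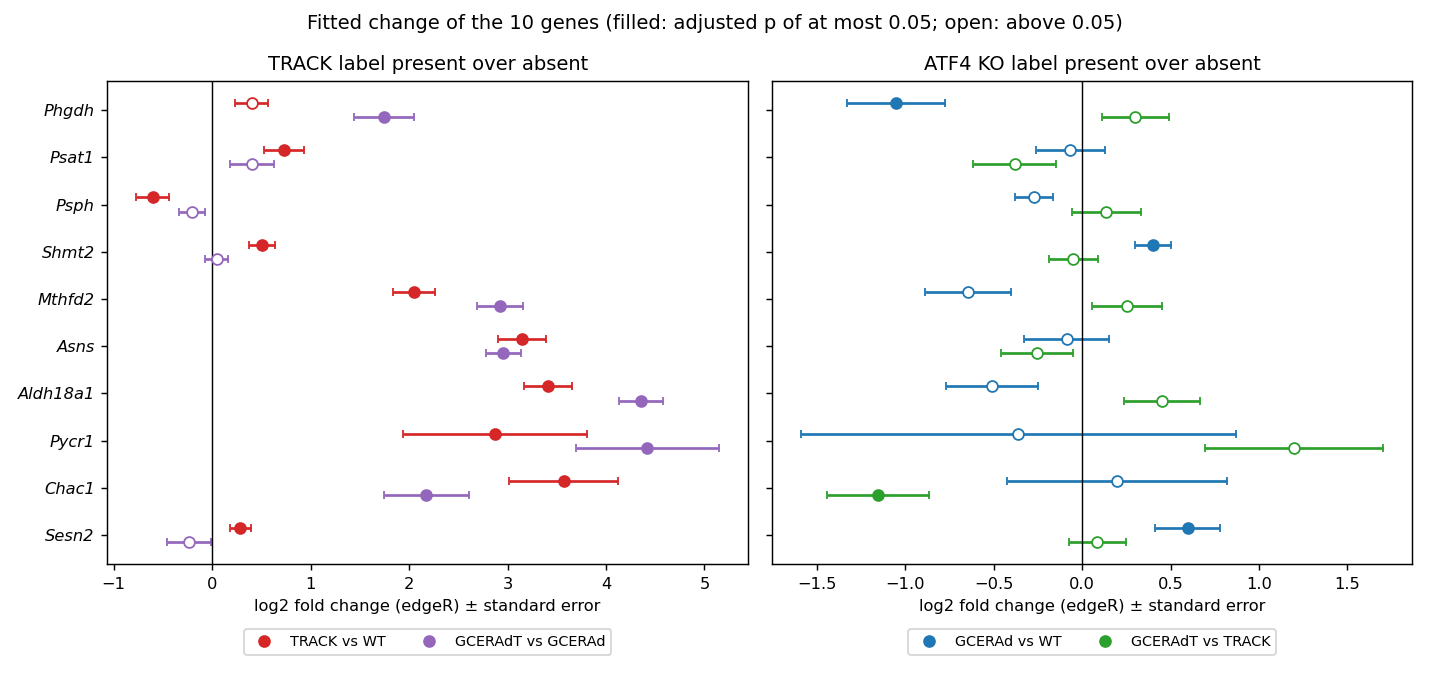
Log2 fold change with its standard error for each gene, on the left for TRACK over WT and GCERAdT over GCERAd and on the right for GCERAd over WT and GCERAdT over TRACK; filled points passed at an adjusted p of at most 0.05. On the left Asns, Mthfd2, Aldh18a1, Pycr1 and Chac1 lie above 2 in both comparisons, and on the right 4 points are filled.

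Of the serine pathway, Phgdh was called in GCERAd against WT and in GCERAdT against GCERAd, whereas Psat1 and Psph were called in TRACK against WT. Phgdh, which oxidizes 3-phosphoglycerate, had a CPM of 15.7, 10.8, 11.1, 12.3 and 12.1 in WT 1 to 5 and of 8.40, 8.89, 5.75, 3.19 and 3.37 in GCERAd 1 to 5. Every GCERAd library lay below every WT library, as for 20.2% of genes above the minimum in either direction, and the change was -1.05 ± 0.28 on the log2 scale (adjusted p = 0.0149), between -1.25 and -0.89 with each library left out in turn. It was -0.86 with library kind in the model (adjusted p = 0.0106) and -0.56 within kind A (adjusted p = 0.0261). Phgdh was 20.4, 16.6 and 12.3 CPM in TRACK 1 to 3 and 22.7, 21.1, 14.8 and 21.7 in GCERAdT 1 to 4. The groups overlapped, with no call between GCERAdT and TRACK (0.30 ± 0.19, adjusted p = 0.353) or between TRACK and WT (0.40 ± 0.17, adjusted p = 0.0746); the latter passed without WT 1 or without TRACK 3 (adjusted p down to 0.014).

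The change of Phgdh in GCERAdT against GCERAd was 1.75 ± 0.30 (adjusted p = 0.00319), with no overlap, and between 1.60 and 1.95 with each library left out. Both ATF4 KO contrasts differed by 1.36 ± 0.39 on the log2 scale (adjusted p = 0.0183); the call was lost without TRACK 3 (adjusted p = 0.055), with library kind in the model (0.92, adjusted p = 0.0599) and within kind B (1.53, adjusted p = 0.11). Phgdh also moved with library kind inside the pairs that may share a mouse: the kind B library had 0.689, 0.646 and 0.701 of the kind A value in WT, GCERAd and GCERAdT. GCERAd held 3 kind B libraries of 5 and WT 1 of 5.

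Psat1, the transaminase of the next step, was 54.1, 54.2, 38.2, 36.2 and 37.1 CPM in WT 1 to 5 and 32.1, 31.6, 34.6, 54.4 and 55.5 in GCERAd 1 to 5. It was 67.2, 52.9 and 98.4 in TRACK 1 to 3 and 56.6, 42.7, 46.9 and 76.2 in GCERAdT 1 to 4. The groups overlapped in every comparison, and Psat1 passed in TRACK against WT (0.73 ± 0.21, adjusted p = 0.0155), a call lost without TRACK 3 (0.0753) and with library kind in the model (0.43, adjusted p = 0.37). In GCERAdT against GCERAd it did not pass (0.40 ± 0.22, adjusted p = 0.243), and with the replicate number as a block it did (0.53, adjusted p = 0.00441), as it did within kind A (0.65, adjusted p = 0.00469). The ATF4 KO contrasts gave -0.07 ± 0.20 without TRACK and -0.38 ± 0.24 with it, neither called.

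Psph, the phosphatase that releases serine, was lower in TRACK, where Psat1 was higher. It was 13.5, 15.5, 13.9, 11.6 and 14.1 CPM in WT 1 to 5 and 8.41, 6.93 and 11.7 in TRACK 1 to 3, so that TRACK 3 lay just inside the WT range. The change was -0.60 ± 0.17 (adjusted p = 0.0141; up to 0.056 without TRACK 1 or 2). GCERAd 1 to 5 held 12.1, 11.4, 12.8, 10.8 and 9.21 and GCERAdT 1 to 4 held 8.80, 8.53, 10.4 and 11.8, with no call in GCERAd against WT (-0.27 ± 0.11, adjusted p = 0.0844), GCERAdT against GCERAd (-0.20 ± 0.13, adjusted p = 0.324; -0.43 within kind A, adjusted p = 0.0464) or GCERAdT against TRACK (0.14 ± 0.20, adjusted p = 0.696). Psph shares 452 exon bases with Cct6a on the opposite strand, a gene with up to 11373 counts in a library, and the strand setting of the counting is not stated, so reads from those bases cannot be told apart.

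In mitochondria, SHMT2 splits serine to glycine and a one-carbon unit, which MTHFD2 oxidizes. Shmt2 was 144.5, 124.4, 146.5, 137.7 and 173.5 CPM in WT 1 to 5 and 166.9, 197.2, 166.1, 220.2 and 200.4 in GCERAd 1 to 5, with WT 5 inside the GCERAd range. It rose by 0.40 ± 0.10 on the log2 scale in GCERAd (adjusted p = 0.014, at most 0.0352 with each library left out); within kind A the adjusted p was 0.0807. TRACK 1 to 3 held 235.5, 220.5 and 163.2 and GCERAdT 1 to 4 held 203.2, 197.1, 166.2 and 226.2. The call in TRACK against WT (0.51 ± 0.13, adjusted p = 0.0101) was lost without TRACK 1 (0.0548), and GCERAdT was not called against GCERAd (0.05 ± 0.12, adjusted p = 0.823) or TRACK (-0.05 ± 0.14, adjusted p = 0.856). Shmt2 shares 32 exon bases with Ndufa4l2 on the opposite strand.

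Mthfd2 separated the libraries by the TRACK label. It was 4.29, 3.63, 2.75, 2.53 and 3.63 CPM in WT 1 to 5, 2.79, 1.22, 2.80, 1.85 and 2.10 in GCERAd 1 to 5, 16.2, 15.9 and 9.71 in TRACK 1 to 3 and 14.7, 14.2, 16.2 and 20.9 in GCERAdT 1 to 4. The lowest library with the TRACK label was above 9 CPM and the highest without it below 5. The log2 changes were 2.05 ± 0.21 (TRACK against WT, adjusted p = 5.9e-05) and 2.92 ± 0.23 (GCERAdT against GCERAd, adjusted p = 1.81e-05), called with each library left out. The ATF4 KO contrasts were -0.64 ± 0.24 without TRACK (adjusted p = 0.106, and 0.0472 with all 17 libraries in 1 fit) and 0.25 ± 0.20 with it (adjusted p = 0.459), and their difference of 0.89 ± 0.34 did not pass (adjusted p = 0.0631), though it did with DESeq2 (0.0442) and with library kind in the model (1.09, adjusted p = 0.0442).

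**Figure D3:**
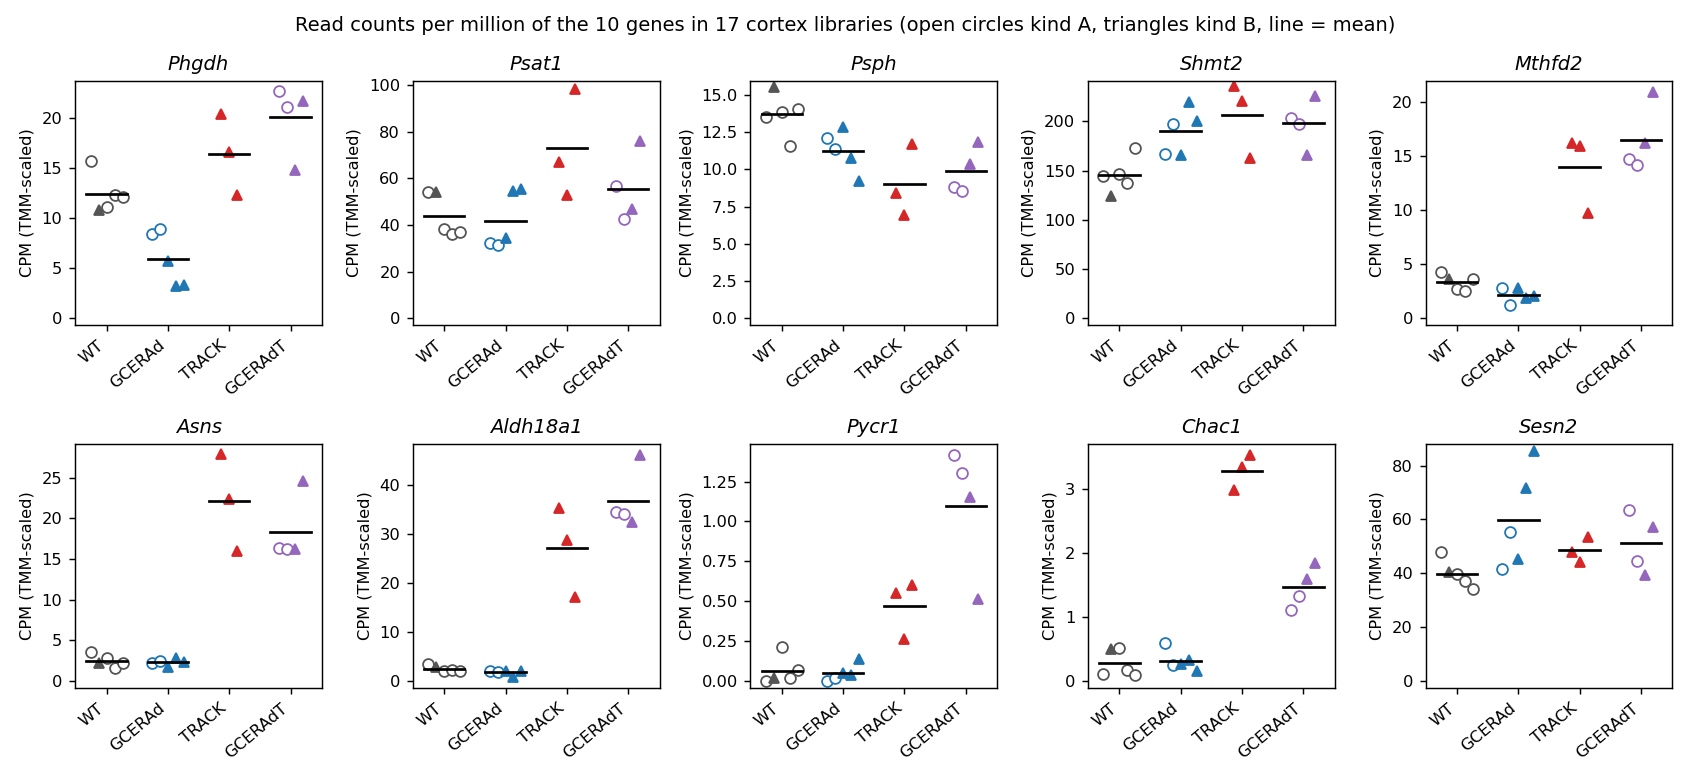
CPM of the 10 genes in each of the 17 libraries, 1 panel a gene, with open circles for kind A and filled triangles for kind B libraries and a line at each group mean. For Asns, Mthfd2, Aldh18a1, Pycr1 and Chac1 all 7 libraries with the TRACK label lie above all 10 without it; the 3 lowest values of Phgdh are kind B libraries of GCERAd.

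Other serine, glycine and one-carbon genes did not move as a block. Of 21 listed genes 17 were tested in TRACK against WT, where 5 rose and 5 fell (median log2 change -0.06), and in GCERAdT against GCERAd, where 3 rose and 3 fell. Aldh1l2 and Mthfd1l, both mitochondrial, led the increases in both. Each entered these comparisons only through its means with the TRACK label, and so had to differ to enter. They are also in the list of further ATF4-driven genes below. Aldh1l2, which oxidizes 10-formyltetrahydrofolate to CO2, rose from 2.15 ± 0.47 CPM in WT (SD, n = 5) to 113.0 ± 50.1 in TRACK (n = 3) and from 2.67 ± 1.35 in GCERAd to 106.7 ± 21.5 in GCERAdT (log2 changes 5.72 and 5.30). Mthfd1l, the mitochondrial formate synthase, rose by 2.40 and 2.30 on the log2 scale. Gcat and Gcsh, also mitochondrial, had lower mean CPM in TRACK (26.2 and 81.9) than in WT (72.8 and 129.3). In GCERAdT Gcat was also below GCERAd (33.8 against 52.9) and Gcsh was not (95.9 against 91.2). Cytosolic Shmt1 was 97.3 ± 2.60 CPM in WT and between 40.1 and 68.0 in the 12 other libraries; it fell in GCERAd (-0.90) and in TRACK (-0.99). In GCERAd against WT 3 of 15 tested rose and 4 fell, and in GCERAdT against TRACK 2 of 17 rose and 1 fell.

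Asns, which makes asparagine with glutamine as nitrogen donor, was also higher in every library with the TRACK label than in any without it. It was 3.53, 2.24, 2.89, 1.58 and 2.21 CPM in WT 1 to 5 and 2.19, 2.51, 1.74, 2.90 and 2.38 in GCERAd 1 to 5. It was 27.9, 22.4 and 16.0 in TRACK 1 to 3 and 16.4, 16.2, 16.2 and 24.6 in GCERAdT 1 to 4. The log2 changes were 3.15 ± 0.24 (TRACK against WT, adjusted p = 9.68e-06) and 2.96 ± 0.18 (GCERAdT against GCERAd, adjusted p = 2.62e-06), and leaving out any library kept them between 2.78 and 3.34. With the ATF4 KO label the changes were -0.09 ± 0.24 (adjusted p = 0.847) and -0.26 ± 0.20 (adjusted p = 0.466), and their difference of -0.17 ± 0.32 did not pass (adjusted p = 0.726).

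Among 12 other asparagine, aspartate and alanine genes, all tested, 2 rose and 5 fell in TRACK against WT and 3 rose and 7 fell in GCERAdT against GCERAd. Aspg, an asparaginase, rose in TRACK (2.18 on the log2 scale) and in GCERAd (1.88) against WT. Ass1, which joins citrulline to aspartate, fell with the TRACK label by 1.25 and by 1.43. In GCERAdT against TRACK 2 fell and none rose: Glul, the glutamine synthetase, was 930.8 ± 205.6 CPM in TRACK and 289.1 ± 48.2 in GCERAdT (-1.68, adjusted p = 0.000751), and Got1 fell by 0.53. The ATF4 KO label without TRACK went with 2 increases and 1 decrease.

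For proline, ALDH18A1 makes glutamate semialdehyde and PYCR1 reduces its cyclic form to proline. Aldh18a1 was 3.48, 2.89, 2.08, 2.17 and 2.08 CPM in WT 1 to 5 and 2.09, 1.88, 1.97, 0.899 and 2.07 in GCERAd 1 to 5. It was 35.5, 28.8 and 17.2 in TRACK 1 to 3 and 34.6, 34.1, 32.5 and 46.3 in GCERAdT 1 to 4. The log2 changes were 3.42 ± 0.24 (TRACK against WT, adjusted p = 5.45e-06) and 4.35 ± 0.22 (GCERAdT against GCERAd, adjusted p = 7.63e-07), the lowest being 3.18 with a library left out. The ATF4 KO contrasts gave -0.51 ± 0.26 (adjusted p = 0.239) and 0.45 ± 0.22 (adjusted p = 0.23), and their difference was 0.95 ± 0.35 (adjusted p = 0.0528), which passed with DESeq2 (0.0294) and with the replicate number as a block (1.05, adjusted p = 0.0433).

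Pycr1 had few reads. WT 1 to 5 held 0, 1, 12, 1 and 4 counts and GCERAd 1 to 5 held 0, 1, 3, 2 and 8, whereas TRACK 1 to 3 held 30, 15 and 37 and GCERAdT 1 to 4 held 107, 75, 69 and 33. Every library with the TRACK label was above every library without it. In the second fit, on every gene that had a count, the log2 changes were 2.88 ± 0.93 (TRACK against WT, adjusted p = 0.0326) and 4.42 ± 0.72 (GCERAdT against GCERAd, adjusted p = 0.00115). The first call was lost without WT 4, WT 5, TRACK 1 or TRACK 3 (adjusted p up to 0.109) and with library kind in the model (0.191). The second was called with each library left out. GCERAdT lay 1.20 ± 0.50 above TRACK without passing (adjusted p = 0.218), and GCERAd against WT gave -0.36 ± 1.23 (adjusted p = 0.881).

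Of 10 other proline and ornithine genes 9 were in the table and tested. With the TRACK label the prolyl hydroxylase subunits P4ha2 (1.60 and 1.46 on the log2 scale) and P4ha1 (1.16 and 1.23) were the 2 that rose in each comparison, while 5 fell in TRACK against WT and 3 in GCERAdT against GCERAd, with the proline oxidase Prodh falling in both (-0.95 and -1.31). Oat, the ornithine aminotransferase, was 350.4 ± 39.8 CPM in WT and between 120.4 and 186.3 in the other 12 libraries, and fell in GCERAd (-1.04) and in TRACK (-1.33). In GCERAd against WT 3 rose and 3 fell, and in GCERAdT against TRACK only Prodh2 passed (0.42).

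Chac1, a gamma-glutamylcyclotransferase, was the 1 gene of the 10 called in GCERAdT against TRACK, where it was lower. It was 2.98, 3.34 and 3.53 CPM in TRACK 1 to 3 (162, 190 and 216 counts) and 1.11, 1.32, 1.59 and 1.84 in GCERAdT 1 to 4 (84, 76, 95 and 118 counts). The groups did not overlap, as for 23.1% of genes above the minimum, and the change was -1.16 ± 0.29 (adjusted p = 0.0436). The call was lost when any library but GCERAdT 4 was left out (adjusted p up to 0.146), while the change stayed between -1.28 and -1.04. WT 1 to 5 held 0.105, 0.496, 0.515, 0.167 and 0.0999 CPM and GCERAd 1 to 5 held 0.589, 0.247, 0.259, 0.330 and 0.155, which overlapped (0.20 ± 0.62, adjusted p = 0.87). The increases with the TRACK label were 3.57 ± 0.55 (adjusted p = 0.000648) without ATF4 KO and 2.18 ± 0.43 (adjusted p = 0.00447) with it, called with each library left out; the first was lost with library kind in the model (2.72, adjusted p = 0.0528). The difference of -1.36 ± 0.70 did not pass (adjusted p = 0.166).

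Of 7 other glutathione genes, 4 rose and none fell in TRACK against WT, among them Gclc, the catalytic subunit of glutamate-cysteine ligase (0.63). GCERAd against WT also had 4 increases, with Ggt1 at 0.67, the gene whose promoter drives the CreER transgene. In GCERAdT against TRACK none passed edgeR's test at an adjusted p of at most 0.05 (2 at an unadjusted p under 0.05, and 1 by DESeq2), and in GCERAdT against GCERAd 1 rose and 2 fell.

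Sesn2 was 47.7, 40.5, 39.8, 37.0 and 34.3 CPM in WT 1 to 5 and 41.4, 55.2, 45.2, 71.7 and 85.6 in GCERAd 1 to 5. GCERAd 2, 4 and 5 lay above every WT library, GCERAd 1 and 3 lay within the WT range, and the change was 0.60 ± 0.18 (adjusted p = 0.0315). That call was lost without GCERAd 4, GCERAd 5 or any of WT 2 to 5 (adjusted p up to 0.0771) and with library kind in the model (0.45, adjusted p = 0.098). TRACK 1 to 3 held 48.1, 44.1 and 53.4 and GCERAdT 1 to 4 held 63.6, 44.7, 39.3 and 57.3. TRACK passed against WT (0.29 ± 0.11, adjusted p = 0.0491), with 0.17 as the highest adjusted p with a library left out (the call was lost without any of WT 2 to 5, TRACK 1 or TRACK 3), and GCERAdT did not pass against GCERAd (-0.24 ± 0.22, adjusted p = 0.505) or TRACK (0.09 ± 0.16, adjusted p = 0.768). Sesn1 and Sesn3 rose in TRACK against WT (0.37 and 0.32). In GCERAdT against GCERAd neither passed edgeR's test (0.43 and 0.28, adjusted p = 0.0537 and 0.0769), both had an unadjusted p under 0.05, and DESeq2 called both.

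A list of 42 names of further ATF4-driven genes, 36 of them in the table, moved with the TRACK label in the same direction as Asns, Mthfd2 and Aldh18a1. Of 34 tested, 24 rose and 1 fell in TRACK against WT, with a median log2 change of 0.61 beside -0.01 over all genes tested. Of all 11967 genes tested there 2754 were called higher and 2704 lower. In GCERAdT against GCERAd 17 rose and 2 fell (median 0.47, beside -0.003), where 1109 of 11816 genes were called higher and 1157 lower. Trib3, a pseudokinase induced by the stress response, was 1.02 ± 0.31 CPM in WT, 0.786 ± 0.18 in GCERAd, 15.6 ± 3.17 in TRACK and 21.1 ± 4.22 in GCERAdT. Stc2, a secreted glycoprotein, was 5.53 ± 0.96, 3.10 ± 0.67, 17.0 ± 1.91 and 34.5 ± 2.17 in the same order. Ddit4, an mTORC1 inhibitor, rose by 2.80 and 1.67 on the log2 scale, and the hormone Fgf21 went from at most 0.0734 CPM in a library without the TRACK label to at least 0.662 in a library with it. Of the listed genes 15 were called higher in both comparisons, Aldh1l2 and Mthfd1l among them, against 4.6% of 11575 genes. In GCERAd against WT 29 of the list were tested, beside 34 in each TRACK comparison. The further genes, Fgf21, Aldh1l2 and Mthfd1l among them, entered only through their means with the TRACK label and had to differ to enter. These counts are therefore a description and not a test.

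The same list did not follow the TRACK pattern under the ATF4 KO label. In GCERAd against WT 5 of 29 tested rose and 11 fell (median -0.02). Over all 11581 genes tested 1638 were called higher and 1560 lower, so a larger share of the list fell than of all genes. Cbs, the cystathionine synthase, rose by 1.14, and the amino acid transporter Slc7a5 fell by 1.09. In GCERAdT against TRACK 1 rose, Stc2 (1.03), and 1 fell, Herpud1, a component of the degradation machinery of the endoplasmic reticulum (-0.95). There 335 of 11928 genes were called higher and 511 lower.

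**Figure D4:**
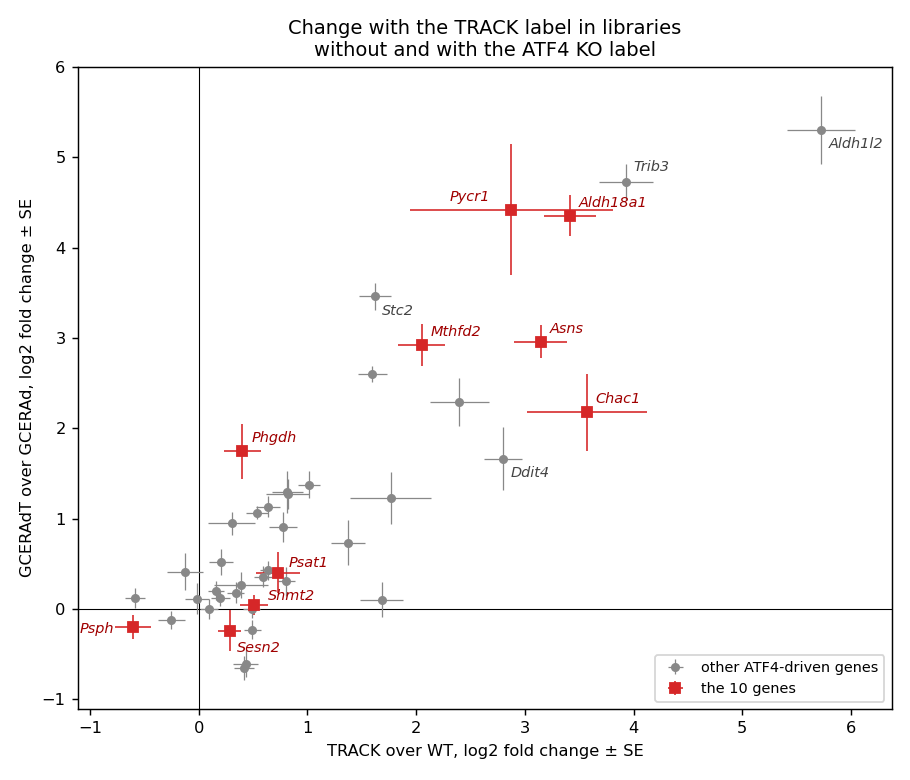
Log2 fold change of TRACK over WT (x axis) and of GCERAdT over GCERAd (y axis), each with its standard error, for the 10 genes (red squares) and 33 further ATF4-driven genes (grey circles); Fgf21 is left out because its libraries without the TRACK label were almost all at 0. Pycr1, Aldh18a1, Asns, Mthfd2 and Chac1 lie above 2 on both axes, Phgdh lies above 1 on the y axis alone, and Psph lies below 0 on both.

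The makeup of the cortex moved with the TRACK label too. In bulk tissue fewer cells of a type and less RNA per cell cannot be told apart. The summed CPM of the 10 proximal tubule markers was 7660 to 9272 in WT, 8648 to 12390 in GCERAd, 4707 to 5530 in TRACK and 5562 to 6282 in GCERAdT. These markers did not move together. From WT to TRACK mean CPM went from 3046 to 1059 for Slc34a1. It went from 366.8 to 609.2 for Slc22a6 and from 0.783 to 262.6 for Slc7a13. The other markers had lower means in TRACK than in WT. In GCERAd the means were 3797 for Slc34a1, 956.3 for Slc22a6 and 677.1 for Slc7a13. Lrp2 (1728 in WT and 1682 in GCERAd), Aqp1 (938.1 and 970.9) and Slc5a2 (327.2 and 345.9) moved less. The sum of 4 tubule injury markers was 8.25 to 11.9 in WT (1 of the 4 was at 0 in a library), 11.3 to 19.6 in GCERAd, 35.3 to 71.8 in TRACK and 42.2 to 50.9 in GCERAdT. Of these, Havcr1, Krt20 and Vcam1 had higher means than WT in every other group. Lcn2 did not, with mean CPM of 2.83 in WT, 1.01 in GCERAd, 12.75 in TRACK and 2.58 in GCERAdT. The sum of 4 proliferation markers was 2.11 to 3.05, 2.08 to 5.24, 5.01 to 6.82 and 6.63 to 8.33 in the same order. The sum of 4 endothelial markers was 197.3 to 230.1 in WT, 220.1 to 253.6 in GCERAd, 345.1 to 393.7 in TRACK and 302.5 to 326.7 in GCERAdT. The sum of 5 immune markers overlapped between all groups, at 119.5 to 208.0 over WT and 162.4 to 170.9 over TRACK, whereas a library held 146 to 723 counts of immunoglobulin variable genes in WT, 476 to 2121 in GCERAd, 7230 to 30451 in TRACK and 14957 to 33298 in GCERAdT. The part of the marker levels in the changes of the 10 genes was not tested.

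Library kind bore unequally on the 10 genes. In the 3 pairs that may each come from 1 mouse, the kind B library was lower for Phgdh (0.646 to 0.701 of kind A), Shmt2 (0.842 to 0.861) and Sesn2 (0.818 to 0.879), and higher for Psph (1.13 to 1.21). Psat1 had ratios of 1 to 1.10. The ratios of Aldh18a1 (0.830 in WT, 1.05 in GCERAd and 0.954 in GCERAdT) and Mthfd2 (0.845, 2.29 and 1.14) lay on both sides of 1, and those of Asns were 0.635, 0.695 and 1. All 3 TRACK libraries are kind B, and the increases of Asns, Mthfd2, Aldh18a1, Pycr1, Chac1 and Phgdh in GCERAdT against GCERAd were called within kind A and within kind B alike. For GCERAd against WT, where kind B holds 1 WT library, none of the 10 passed within kind B by edgeR, and 2 (Phgdh and Shmt2) had an unadjusted p under 0.05.

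**Figure D5:**
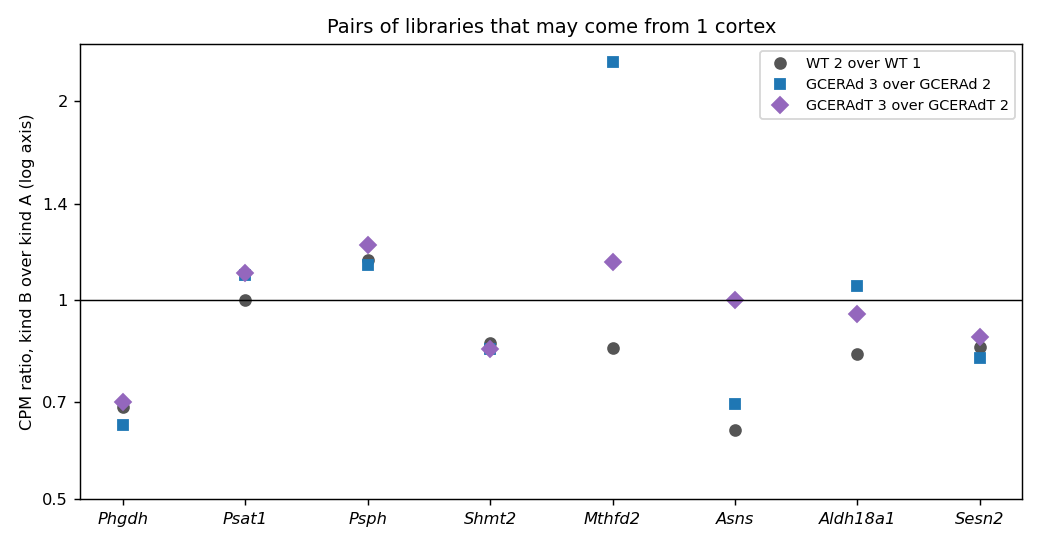
Ratio of the CPM in the kind B library to that in the kind A library (log axis) for 3 pairs that may each come from 1 cortex, for the 8 genes with more reads; Pycr1 and Chac1 are left out. For Phgdh all 3 ratios lie between 0.646 and 0.701, and for Psph between 1.13 and 1.21.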

How the data were processed

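Cortex RNA was made into stranded mRNA libraries (5 WT, 5 GCERAd, 3 TRACK, 4 GCERAdT). Reads were trimmed with Cutadapt 3.5, aligned to GRCm38 with STAR and counted with HTSeq-count 0.13.5 by the authors; the annotation release and strand setting are not given in the sources used here. The deposited values are whole read counts per gene without normalization, totalling 53688512 to 71364561 per library.

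The 10 genes, the gene lists and the tests were chosen with earlier results of these data known. Groups came from the sample labels. Counts were fitted in R 4.3.3 with edgeR 4.0.16 (TMM scaling, quasi-likelihood F test), each comparison on the samples of its 2 groups and the difference of the ATF4 KO contrasts on all 17. Genes entered at a mean FPKM of at least 1 in either group, with merged exon lengths from GENCODE M21 for 48435 genes (360 had none). Benjamini-Hochberg adjustment ran over all genes tested, and a gene was called at an adjusted p of at most 0.05. A gene below the minimum was read from a second fit, on every gene that had a count. Named genes were the 10, Atf4, sex-linked genes, up to 4 called genes of largest change per list and comparison, and the 3 genes most like each of the 10 (Pearson's r of log2(CPM + 0.5) over 17 libraries).

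Alternatives were DESeq2 1.42.0, RLE scaling, no filter or edgeR's filterByExpr, the replicate number of the label as a block (not a mouse), all 17 samples in 1 fit and leaving out each library. Library kind as a covariate, each kind alone, and possible repeat libraries summed were added after seeing the data. Same-numbered libraries deviated together in GCERAdT against GCERAd (correlations 0.393 to 0.556 over 4 numbers). Each number there joins libraries of 1 kind, so pairing by number and library kind cannot be told apart. The procedure was tested on simulated counts with known changes.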

Additional observations from a re-analysis of the deposited data

Results flagged for a closer look

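Of 33 groups of 4 or 5 libraries looked at (the 10 genes and Atf4), 3 held a library far from the rest, where chance gives about 1 in 20 groups. GCERAdT 4 was high for Asns (24.6 CPM, a gap of 0.973 of the group's range) and for Aldh18a1 (46.3 CPM, 0.846). GCERAd 4 was low for Aldh18a1 (0.899 CPM, 0.822). Without GCERAdT 4 or GCERAd 4 both genes kept their calls in GCERAdT against GCERAd.

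In the test of the difference between both ATF4 KO contrasts, Phgdh (1.36 on the log2 scale, edgeR adjusted p = 0.0183) and Atf4 (0.55, adjusted p = 0.021) passed: each was lower in GCERAd than in WT and not lower in GCERAdT than in TRACK. For Atf4 the call was lost without TRACK 2 or TRACK 3 (adjusted p up to 0.0592), with possible repeats summed (0.0532) and within kind B (0.278). For Phgdh it was lost without TRACK 3 (0.055), with library kind in the model (0.0599) and within kind B (0.11). Sex differs between WT and the other 3 groups, so that its part and that of the TRACK label in this difference cannot be told apart.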

How the results depend on the processing

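Of 970 log2 changes of the 10 genes recomputed under the alternatives (DESeq2 or edgeR, adjusted p of at most 0.05), 868 kept their direction and their side of the threshold, 56 lost the call, 19 gained it and 27 turned sign. The number of the 10 called in GCERAdT against GCERAd was 6 to 8 under every alternative. For GCERAd against WT it was 3, 4 with all 17 libraries in 1 fit, 1 within kind A and 0 within kind B (2 at an unadjusted p under 0.05). In GCERAdT against TRACK it was 1, and 0 with the replicate block, with all 17 libraries in 1 fit, with library kind in the model, within kind B and with possible repeats summed (edgeR; 5, 1, 1, 1 and 2 at an unadjusted p under 0.05); it was 0 to 1 with each library left out. In TRACK against WT it was 9, 5 with library kind in the model, 4 within kind B and 5 to 10 with each library left out, the lowest without TRACK 1. For the difference of the ATF4 KO contrasts it was 1, 3 with DESeq2, 3 with the replicate block, 0 within kind B (3 at an unadjusted p under 0.05) and 1 to 3 with each library left out. Kind B holds 1 WT library, which was taken to vary like the other groups.

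The changes that turned sign, those of Atf4 included beside the 27 of the 10 genes, were as follows. Within kind B they were Asns (0.10), Pycr1 (2.04) and Chac1 (-0.96) in GCERAd against WT, Sesn2 (-0.00092) in GCERAdT against TRACK, Psph (0.0034) and Shmt2 (-0.0094) in GCERAdT against GCERAd, Atf4 (0.16) in TRACK against WT, and Pycr1 (-1.23) and Chac1 (0.037) for the difference. Within kind A it was Sesn2 (0.17) in GCERAdT against GCERAd. With possible repeats summed it was Psat1 (0.094) in GCERAd against WT. With library kind in the model they were Atf4 (0.16) in TRACK against WT and Psat1 (0.10) for the difference, and with the replicate block Atf4 (0.086) in TRACK against WT. With each library left out, the ranges that crossed 0 in GCERAd against WT were -0.21 to 0.073 for Asns, -0.19 to 0.023 for Psat1, -1.21 to 0.90 for Pycr1 and -0.15 to 0.56 for Chac1. The ranges in GCERAdT against TRACK were -0.026 to 0.38 for Psph, -0.19 to 0.052 for Shmt2 and -0.036 to 0.19 for Sesn2. Atf4 in TRACK against WT ranged from -0.11 to 0.052, Shmt2 in GCERAdT against GCERAd from -0.025 to 0.13 and Asns for the difference from -0.37 to 0.031. The cause was not tested.

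Over all genes above the minimum, the count called moved by over 1.5 times in several settings. For GCERAdT against TRACK it was 846, 1562 with DESeq2, 462 with library kind in the model, 221 within kind B, 498 with possible repeats summed and 379 to 1424 with each library left out. It was 3198 in GCERAd against WT, 2106 with the replicate block and 98 within kind B. In TRACK against WT it was 5458, 3431 with the block, 2776 with library kind in the model and 1475 within kind B. In GCERAdT against GCERAd it was 2266, 3770 with the block, 349 within kind B, 1168 with possible repeats summed and 1427 to 2336 with each library left out. For the difference it was 3070, and 452 within kind B. Same-numbered libraries did not deviate together in the other 3 comparisons (correlations -0.608 to 0.0836). With the block 2 of 10 were called in GCERAd against WT and 6 in TRACK against WT. In GCERAdT against GCERAd the block changed the call of Psat1 and of no other of the 10. Below about 1 FPKM, as for Pycr1 and Chac1 in WT and GCERAd, counts limit what can be detected.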

Other observations

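Over the 17 libraries, which share library kind and sex with their groups, Mthfd2 and Aldh18a1 (Pearson's r of log2 CPM 0.978), Asns and Aldh18a1 (0.968) and Asns and Mthfd2 (0.948) were the most alike pairs among the 10 genes. Psph ran against Shmt2 (-0.732) and Asns (-0.648), and Phgdh was weakly alike with Psat1 (0.253), the next enzyme of its pathway. The genes most like Asns were Gpi1 (0.984), Ostn and Plod1 (both 0.983). Those most like Mthfd2 were Aldh18a1, Pfkp (0.975) and Adm2 (0.97), and those most like Aldh18a1 were 2610528A11Rik (0.986), Zfp92 (0.985) and Grin1 (0.984). Pycr1 was most like the immunoglobulin gene Ighg1 (0.941) and Chac1 most like Igkv1-110 (0.949). These are descriptions of 17 libraries that fall into groups with and without the TRACK label.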
